A study of Homo sapiens with 2 samples.

Results

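A chromatin loop in a Hi-C map is a pixel where 2 distant stretches of a chromosome were joined more often than the map around that pixel. The loops described here are the long ones: those of the merged loop table whose anchors lay more than 400 kb and at most 2 Mb apart, measured from the start of the left anchor to the start of the right anchor. They were 394 of the 1507 listed loops. Another 1038 loops were up to 400 kb long, and 75 were above 2 Mb. They were chosen by the distance between their anchors alone, among loops that a caller had already selected on their contacts, so lengths and contacts are given as a description, and what follows on domains, nesting and compartments comes from the other deposited tables or from the rest of the loop list.

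The study mapped how the genome is folded in the nucleus of HEK293T, a line derived from human embryonic kidney that expresses a viral large T antigen and has an abnormal set of chromosomes. Its 2 in situ Hi-C libraries form 1 group, with no knockdown, drug, time course or control: cultured cells were fixed with formaldehyde, their chromatin was cut with MboI, and the ligated junctions were captured through biotin. All 3 deposited tables (loops, contact domains and compartment scores) describe the group as a whole. No value per library was therefore at hand, no spread between replicates could be given, and no comparison below has a test over samples. Intervals in brackets are 95% intervals of counting error, Wilson for shares and exact Poisson for contacts. All positions are on hg19 and count from 1.

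In the loop extrusion model, cohesin reels in chromatin until it meets CTCF bound in the right orientation, and the place where it stops on both sides shows up as a loop. Such a loop often joins both ends of a contact domain, a stretch whose parts touch each other more than they touch their surroundings, and then sits at the corner of the domain's square in the map. Longer loops can arise where cohesin passes an inner boundary, and loops can also form without extrusion, between regions that share a chromatin state. Compartments are the coarser division into active and inactive chromatin. These sentences are background: no cohesin, CTCF or histone data were used here.

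The 394 loops lay on 22 chromosomes, with none on chromosome 22, where no loop of up to 400 kb was listed either. Their median length was 590 kb, with a range of 405 to 1950 kb. Of them, 212 were up to 600 kb and 49 were above 1 Mb. The caller placed 344 of them on 10 kb anchors and 50 on 5 kb anchors. The shortest were a pair of 405 kb loops, on chromosome 5 from 96080001 to 96490000 with 44 contacts and on chromosome 11 from 26775001 to 27185000 with 38 contacts, followed by a 410 kb loop on chromosome 1 from 100920001 to 101340000 with 65 contacts. All 3 sat at a domain corner. So did the 3 loops of 400 kb just outside the lower bound, on chromosome 1 from 64730001 to 65140000 and from 152020001 to 152430000, and on chromosome 3 from 73150001 to 73560000, with 83, 68 and 70 contacts.

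At the upper end the picture differed. The longest member joined chromosome 9 at 86500001 to chromosome 9 at 88460000 over 1950 kb, with 21 contacts in its pixel. Next came a 1890 kb loop on chromosome 21 from 28220001 to 30120000 with 53 contacts, and a 1830 kb loop on chromosome 3 from 10080001 to 11920000 with 19 contacts. A 1770 kb loop on chromosome 17 from 68760001 to 70540000 had 33 contacts, and a 1740 kb loop on chromosome 14 from 33040001 to 34790000 had 56 contacts. None of these 5 was at the corner of 1 domain. Just past 2 Mb, the nearest loops were 2050 and 2090 kb long, both on chromosome 16, from 16700001 to 18760000 and from 16680001 to 18780000, with 20 and 19 contacts. The third, of 2190 kb on chromosome 10 from 119100001 to 121300000, had 16 contacts, and all 3 had neither anchor near a domain end.

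Each anchor was set against the ends of the 3845 listed domains, counting an anchor as at a boundary when its centre lay within 50 kb of a domain start or end. A domain corner means that both anchors were this close to both ends of 1 domain. At a corner were 162 of the 394 long loops, or 41.1% (36.4 to 46.0), against 763 of the 1038 loops up to 400 kb, or 73.5% (70.7 to 76.1). The contrast depended on the tolerance, since 50 kb is a larger part of a short loop. With 10 kb the shares were 17.8% (14.3 to 21.8) in long loops and 41.7% (38.8 to 44.7) in shorter ones. With a tolerance of 0.1 of each loop's length, added after the values were seen, they were 42.1% (37.4 to 47.1) and 55.3% (52.3 to 58.3), a smaller gap. Single anchors differed less: 641 of the 788 anchors of long loops were at a boundary (81.3%), against 1792 of the 2076 anchors of shorter loops (86.3%).

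A left anchor at the start of 1 domain and a right anchor at the end of another was the arrangement that bridged neighbouring domains. It held for 73 long loops, or 18.5% (15.0 to 22.7), and for 26 shorter ones, or 2.5% (1.72 to 3.64). Such a loop must hold at least 2 whole domains, so short loops have little room for it: it held for none of the 144 loops up to 100 kb, 2 of the 385 at 100 to 200 kb and 24 of the 509 at 200 to 400 kb (4.72%). A further 41 long loops (10.4%) had both anchors at boundaries in another pairing, against 41 shorter ones (3.95%). Among those 41 long loops, 22 ran from a domain start to another domain's start, 11 from an end to an end, and 8 from the end of 1 domain to the start of a later one. Only 1 anchor was at a boundary in 89 long loops (22.6%), the left in 41 and the right in 48, against 132 shorter loops (12.7%). The share with neither anchor at a boundary was 7.36% among long loops (29 loops) and 7.32% among shorter ones (76 loops).

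Within the long loops the corner share was lower in each class up to 800 kb and lowest in the longest class. It was 56.3% at 400 to 500 kb (71 of 126), 46.5% at 500 to 600 kb (40 of 86), 31.0% at 600 to 800 kb (27 of 87), 32.6% at 800 to 1000 kb (15 of 46), 23.7% at 1000 to 1500 kb (9 of 38), and none of 11 at 1500 to 2000 kb. The share that joined the start of 1 domain to the end of another was 12.7%, 15.1%, 27.6%, 21.7%, 21.1% and 18.2% over the same classes. Loops with no anchor at a boundary made up 3.17%, 4.65%, 10.3%, 6.52%, 15.8% and 27.3%. The last class has few loops, so its shares are loosely fixed.

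**Figure D1:**
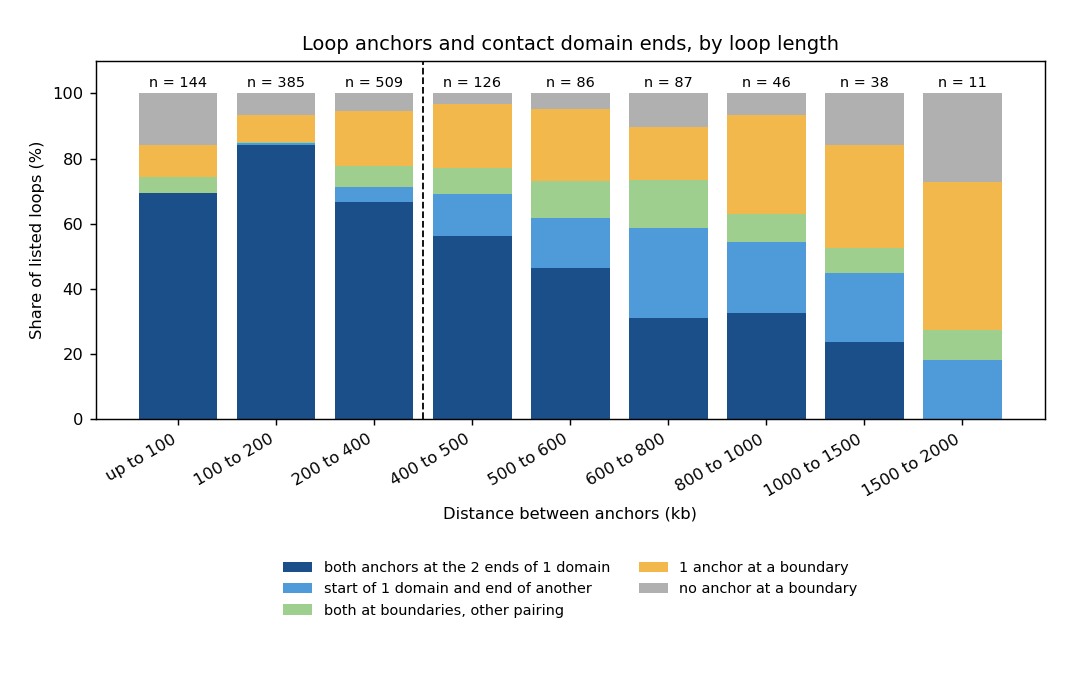
Stacked bars give the share (%) of listed loops in each class of anchor distance (kb) by how their anchors lay to contact domain ends, within 50 kb. The dashed line marks 400 kb, the long loops are to its right, and n is the number of loops. The corner share (dark blue) is 56.3% at 400 to 500 kb and 23.7% at 1000 to 1500 kb, while loops from the start of 1 domain to the end of another (light blue) reach 27.6% at 600 to 800 kb.

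At the 162 corners the offsets between anchors and domain ends were small. The centre of the left anchor lay inside the domain start in 134 loops, exactly on it in 15 and outside in 13, with a median of 10 kb inside. The right anchor lay inside the domain end in 102, on it in 28 and outside in 32, with a median of 5 kb inside. The larger of the pair of offsets had a median of 15 kb and reached 50 kb, the limit set. A centre is counted as inside even where the anchor is flush with the domain end, so part of this follows from the anchor's width. By the outer edge, the left anchor lay inside the domain in 108 loops, flush with its start in 26 and outside in 28, with a median of 5 kb inside. The right anchor lay inside in 67, flush in 35 and outside in 60, with a median of 0 kb.

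The longest loop at a corner spanned 1430 kb on chromosome 5 from 151910001 to 153350000. It enclosed a single domain of 1440 kb, from 151905001 to 153345000, with a caller score of 0.810, and had 46 contacts where the donut neighbourhood (explained further on) gave 13. The other long corner loops were alike in having 40 to 58 contacts. They were 1400 kb on chromosome 7 from 13320001 to 14730000 with 41 contacts, 1250 kb on chromosome 12 from 32910001 to 34170000 with 56, 1220 kb on chromosome 3 from 187450001 to 188680000 with 40, and 1220 kb on chromosome 14 from 33040001 to 34270000 with 58. None of these 5 had a shorter loop or another listed domain inside.

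Seen from the domains, a corner loop was the exception at every size. Of the 2881 domains up to 400 kb, 737 had a listed loop at their corner (25.6%, 24.0 to 27.2). The share was 26.4% of the 311 domains of 400 to 500 kb, 18.5% of the 314 of 500 to 700 kb, 15.8% of the 190 of 700 to 1000 kb, and 6.52% (3.47 to 11.9) of the 138 of 1000 to 2000 kb. None of the 11 domains above 2000 kb had one. Over all 953 domains of 400 to 2000 kb, 179 had a corner loop (18.8%, 16.4 to 21.4), which for 160 was a loop of 400 kb to 2 Mb. Among these 953, the domains with a corner loop had a median caller score of 1.39 and those without one of 1.09. The corresponding medians of domains up to 400 kb were 1.38 and 1.17.

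Of the 394 long loops, 179 had at least 1 domain boundary between their anchors, 50 kb or more from either, or 45.4% (40.6 to 50.4), against 135 shorter loops, or 13% (11.1 to 15.2). At least 1 whole domain, apart from a corner domain, lay inside 176 long loops (44.7%, 39.8 to 49.6) and 132 shorter ones (12.7%). In the long loops the number inside was 1 in 80, 2 in 74, 3 in 12, 4 in 7, 5 in 2 and 6 in 1. The share with a domain inside was 32.5%, 38.4%, 54.0%, 52.2%, 57.9% and 81.8% over the 6 length classes from 400 to 2000 kb. Part of this comparison follows from length, since a longer interval has room for more domains. The 50 kb rule also leaves little or no room for a boundary in the shortest loops. A boundary lay between the anchors in none of the 144 loops up to 100 kb and 12 of the 385 at 100 to 200 kb. At 200 to 400 kb it did in 24.2% of 509.

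Few long loops crossed, or lay within, a domain whose ends were both away from their anchors. In 6 long loops (1.52%), an anchor lay inside a domain with 1 end beyond the loop and the other between its anchors. Both ends of that domain had to lie more than 50 kb from either anchor centre. Loops with 1 anchor at a domain end and the other inside the same domain were not counted. One such loop lay on chromosome 3 from 114930001 to 115420000, in a domain from 114925001 to 115535000. Only 1 long loop lay wholly within a larger domain away from its ends, against 19 of the shorter loops. It was a 650 kb loop on chromosome 10 from 86470001 to 87130000 with 39 contacts. Listed domains covered a median of 97.4% of the interval between the anchors of a long loop, against 100% for shorter loops. The cover was 100% for corner loops and 94.2% for loops from the start of 1 domain to the end of another. It was 34.3% where both anchors were at boundaries in another pairing, 51.9% where 1 anchor was, and 0% where neither was.

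Of the 73 loops from the start of 1 domain to the end of another, 59 held exactly 2 domains and the other 14 held 3 or more. In the 59, the shorter of both domains had a median length of 190 kb and the longer 340 kb. The widest uncovered gap inside had a median of 20 kb and was at most 50 kb in 40 of the 59, so most of these loops bridged adjoining domains, although the widest gap reached 1165 kb. Both inner domains had a corner loop of their own in 13 of the 59, 1 of them did in 28, and neither did in 18.

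A clear case lay on chromosome 13 from 76450001 to 77480000. The outer loop, of 1020 kb, had 102 contacts, 2.26 times its donut expectation (1.85 to 2.75). Inside lay domains of 600 and 425 kb with caller scores of 1.23 and 1.3. The first had a corner loop of 595 kb with 98 contacts (3.66-fold) and the second one of 420 kb with 108 contacts (2.24-fold). The outer pixel thus held about as many contacts as either inner pixel, although the contacts of the 595 kb loop were counted in smaller 5 kb pixels.

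The long loop with the most domains inside joined chromosome 10 at 22280001 to chromosome 10 at 23360000 over 1070 kb with 68 contacts. Its 6 domains were 75 to 435 kb long and 2 pairs of them overlapped. A 990 kb loop from the same left anchor to 23280000 also had 68 contacts and held 5 of these domains. On chromosome 9 from 81810001 to 82770000, a 950 kb loop with 59 contacts held 5 domains, 3 of which shared the start 81785001, so that here nested domain calls and not a row of domains made up the number. The 1830 kb loop on chromosome 3 named above held 4 domains of 180 to 400 kb. A 760 kb loop on chromosome 5 from 114640001 to 115410000, with 40 contacts, also held 4.

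**Figure D2:**
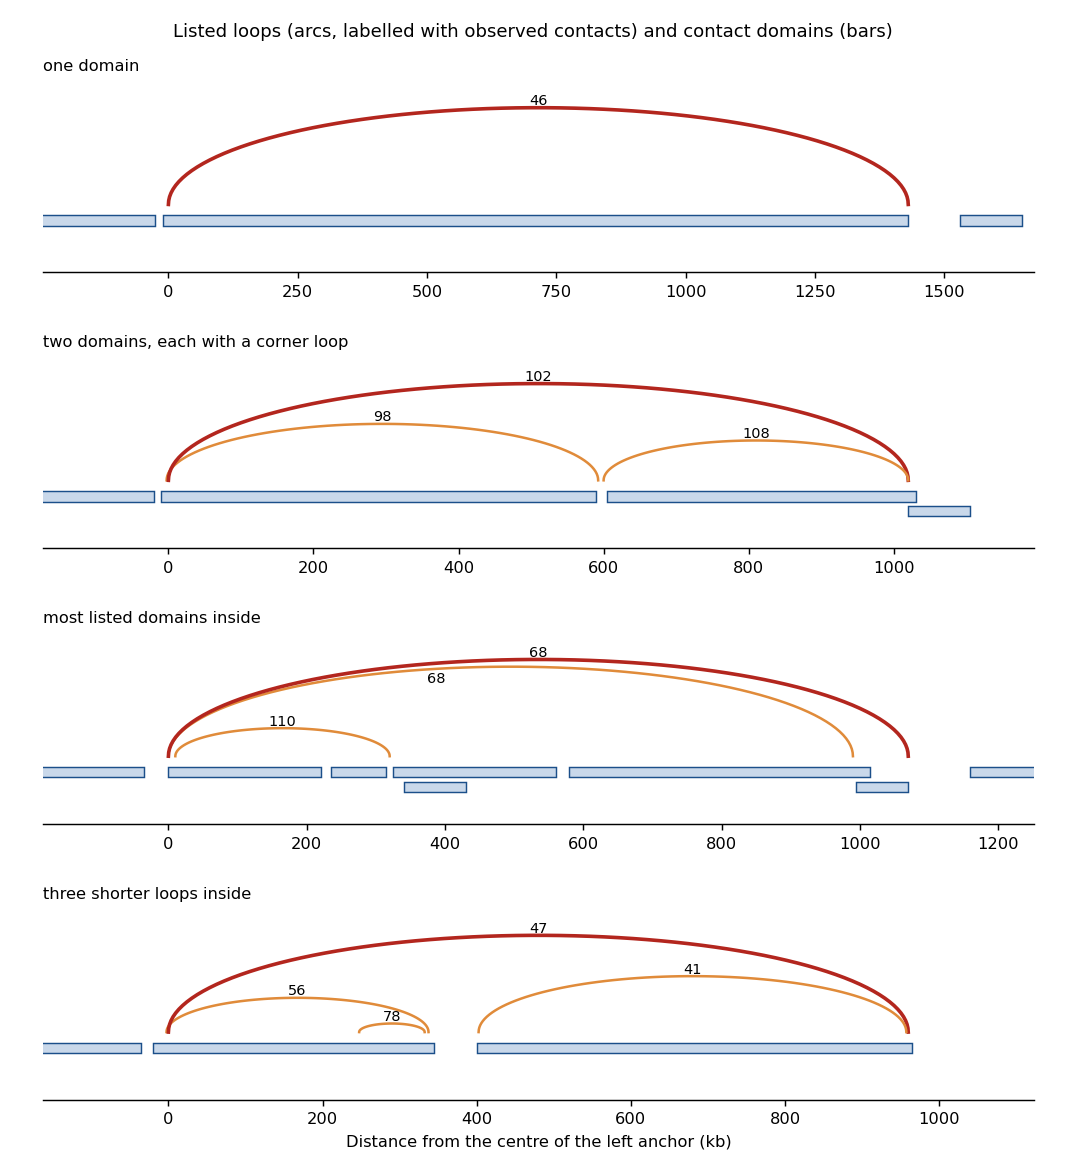
Maps of 4 long loops (red arcs) with the shorter listed loops inside (orange arcs) and the contact domains around (bars), against distance from the left anchor's centre in kb. Numbers on the arcs are observed contacts. From top to bottom they are the 1430 kb corner loop on chromosome 5, the 1020 kb loop on chromosome 13 over 2 domains with a corner loop each, the 1070 kb loop on chromosome 10 with 6 domains, and the 960 kb loop on chromosome 4 with 3 shorter loops.

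A shorter listed loop was counted as nested when both its anchors lay between the outer edges of the long loop's anchors, with a shared anchor allowed. At least 1 was nested in 119 of the 394 long loops, or 30.2% (25.9 to 34.9), against 75 of the shorter loops, or 7.23% (5.80 to 8.96). In the long loops, 89 held 1, 26 held 2 and 4 held 3. The share was 19.5% where the inner loop had to be at most 0.5 of the outer length, and 6.09% where both its anchors had to lie at least 20 kb inside, which drops shared anchors. Here too a longer interval has more room. Within the long loops, the share was 26.2%, 22.1%, 34.5%, 39.1%, 39.5% and 36.4% over the 6 length classes, a smaller spread than that of the corner share.

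Nesting divided the loops by their place on the domains more sharply than by their length. A nested loop was listed in 16 of the 162 corner loops (9.88%) and in 103 of the other 232 (44.4%). At matched lengths the gap was about as wide. At 400 to 600 kb, 8.11% (4.32 to 14.7) of 111 corner loops and 42.6% (33.4 to 52.3) of 101 other loops held one. At 600 to 1000 kb it was 14.3% (6.72 to 27.8) of 42 and 46.2% (36.3 to 56.3) of 91. Above 1000 kb it was 1 of 9 corner loops and 18 of 40 others. In the loops from the start of 1 domain to the end of another, 53 of 73 held a nested loop (72.6%, 61.4 to 81.5), and of the 59 with exactly 2 domains, 39 did. Corner status was itself taken from domains, and the domain and loop calls came from the same contact map, so these shares describe how both sets of calls were arranged.

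The nesting comprised 153 pairs of an outer and an inner loop, with 141 different inner loops. Of these, 107 were up to 400 kb and 34 were themselves long loops. The inner loop had a median of 45.8% of the outer loop's length. Here an anchor counted as shared where the bins of both loops overlapped or adjoined, which is wider than the overlap used below for shared anchor bins. By this measure the inner loop shared the outer loop's left anchor in 69 pairs, the right anchor in 57 and neither in 27. The short inner loops were at a domain corner about as often as other short loops, 81 of 107 (75.7%) against 682 of 931 (73.3%). In the 116 pairs where both loops were called on 10 kb anchors, the outer loop had a median of 60.5 contacts and the inner one 85.5, and the inner one had more in 100 pairs. The enrichment over the donut expectation ran the other way, with medians of 3.06 in outer loops and 2.56 in inner loops, and it was higher in the inner loop in only 18 pairs. The inner loop is the shorter by definition, so nesting and length cannot be told apart here. On 10 kb anchors, Spearman's rho of contacts with length was -0.430 in long loops and -0.314 in loops up to 400 kb. For enrichment it was 0.306 and 0.376.

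In 14 long loops (3.55%), 2 inner loops followed each other the second starting near where the first ended, so that together they led from the left to the right anchor of the outer one, against 7 of the shorter loops (0.674%). Of these 14, 10 ran from the start of 1 domain to the end of another. One was the loop on chromosome 13 described above. On chromosome 6 from 132240001 to 132810000, a 560 kb loop with 75 contacts stood over loops of 350 kb (84 contacts) and 200 kb (131 contacts), which meet at 132600001 and are both at a domain corner. On chromosome 9 from 92210001 to 93640000, a 1420 kb loop with 50 contacts stood over loops of 650 kb (91 contacts) and 730 kb (65 contacts), so that all 3 loops of this chain were above 400 kb.

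The loops with 3 others inside were spread over 4 chromosomes. On chromosome 4 from 166050001 to 167020000, a 960 kb loop with 47 contacts held loops of 340, 85 and 555 kb with 56, 78 and 41 contacts, on 5 kb anchors. On chromosome 5 from 58480001 to 59100000, a 610 kb loop with 56 contacts held loops of 190, 280 and 410 kb with 101, 87 and 96 contacts. On chromosome 9 from 124880001 to 125580000, a 690 kb loop had 44 contacts and its inner loops had 66, 66 and 43, the last on 5 kb anchors. On chromosome 17 from 70550001 to 71370000, an 810 kb loop had 32 contacts and its inner loops had 107, 103 and 112. All 4 outer loops ran from the start of 1 domain to the end of another. Only on chromosomes 5 and 17 were all these loops on 10 kb anchors, and there the inner pixels stood further above the outer on chromosome 17. Counts in 5 kb and 10 kb pixels cannot be ranked together. First among the loops with 2 inside was a 490 kb loop on chromosome 1 from 66410001 to 66910000, with 78 contacts over loops of 290 and 185 kb.

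Few long loops crossed another loop, but the share was higher than in shorter loops. Of the 394, 10 (2.54%, 1.38 to 4.61) overlapped another loop of up to 2 Mb with 1 anchor inside it and 1 outside. Of the 1038 shorter loops, 7 did (0.674%, 0.327 to 1.39), and these intervals barely overlap. Another long loop enclosed 34 of the long loops, and a long loop enclosed 107 of the shorter ones. On chromosome 10, a 1210 kb loop from 29670001 to 30885000 with 19 contacts crossed a 1160 kb loop from 29800001 to 30970000 with 25 contacts, and the other long loops with a crossing were 460 to 1020 kb long.

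An anchor bin was shared with another listed loop by 110 long loops, or 27.9% (23.7 to 32.5), and by 217 shorter ones, or 20.9% (18.5 to 23.5). Counting bins within 20 kb of each other, 49.0% of the long loops shared one. The left anchor was shared in 74 and the right in 56. The share was 17.3% for corner loops and 35.3% for the others. Of the 768 bins that served as anchors of long loops, 18 served 2 of them. Only 1 served 3, the bin on chromosome 2 from 208330001 to 208340000. It was the right anchor of loops of 480, 670 and 770 kb, starting at 207850001, 207660001 and 207560001, with 67, 77 and 49 contacts. The middle one of these sat at a domain corner, the longest led over 2 domains, and the shortest had only 1 anchor at a boundary.

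Among the bins that served 2 long loops, that on chromosome 1 at 100920001 was the right anchor of a 650 kb loop and the left anchor of a 410 kb loop, each with 65 contacts, and so faced both ways. The bin on chromosome 2 at 189380001 was the left anchor of loops of 570 and 890 kb with 51 and 62 contacts. The bin on chromosome 4 at 13550001 was the right anchor of loops of 700 and 820 kb with 76 and 79 contacts, and that on chromosome 5 at 34480001 was the left anchor of loops of 420 and 520 kb with 119 and 70 contacts. Apart from the chromosome 1 bin, each of these joined 1 point to several on the same side.

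The loop table gives, beside the observed contacts of each loop pixel, the contacts expected there from 4 local neighbourhoods: a donut around the pixel, a lower left box towards the inside of the loop, and a horizontal and a vertical strip. A pixel was listed only if it stood above all 4, so the ratios below have a floor set by the caller. The long loops had a median of 61 contacts (quartiles 47 and 75, range 14 to 136), against 84.5 for loops up to 400 kb. Their median expectations were 20.8 from the donut, 23.2 from the lower left, 24.5 from the horizontal and 24.6 from the vertical neighbourhood. For shorter loops these were 33.3, 36.4, 38.1 and 38.2. The observed contacts were a median of 2.98 times the donut expectation in long loops and 2.57 times in shorter ones. Over the highest of the 4 expectations, the medians were 2.35 and 2.08.

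Which neighbourhood was highest varied. It was the horizontal in 178 long loops, the vertical in 169, the lower left in 44 and the donut in 3, and the donut was the lowest of the 4 in 276. The highest was a median of 1.26 times the donut. All 4 lay within a factor of 1.2 of each other in 80 loops. In 13 the highest was at least 1.5 times the donut, and the horizontal or the lower left was more than 2 times the donut in 2 loops each. The lower left neighbourhood covers the inside of the loop. Among loops with 10 kb anchors, its ratio to the donut at 400 to 600 kb had a median of 1.16 at corners and 1.07 elsewhere. At 600 to 1000 kb it was 1.11 and 1.08, and above 1000 kb 1.18 and 1.02, with 8 corner loops in the last class.

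With distance, both the contacts and the expectations were lower and the ratio between them was higher. In loops with 10 kb anchors, the median contacts were 69 at 400 to 500 kb, 67 at 500 to 600 kb, 61 at 600 to 800 kb, 59 at 800 to 1000 kb, 46 at 1000 to 1500 kb and 27 at 1500 to 2000 kb. The donut expectation had medians of 25.1, 24.4, 21.3, 20.1, 14.2 and 5.53 over these classes. The enrichment over it was 2.78, 2.85, 2.91, 3.07, 3.37 and 5.63. Over the highest expectation it was 2.18, 2.22, 2.29, 2.33, 2.73 and 5.19. Across the 344 loops with 10 kb anchors, Spearman's rho with length was -0.430 for contacts, -0.445 for the donut expectation and 0.306 for the enrichment. These loops share 1 map, and the enrichment holds the expectation in its denominator, so the coefficients are a description. Fewer contacts also need a higher ratio to be called, which moves with length here and whose part was not tested.

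**Figure D3:**
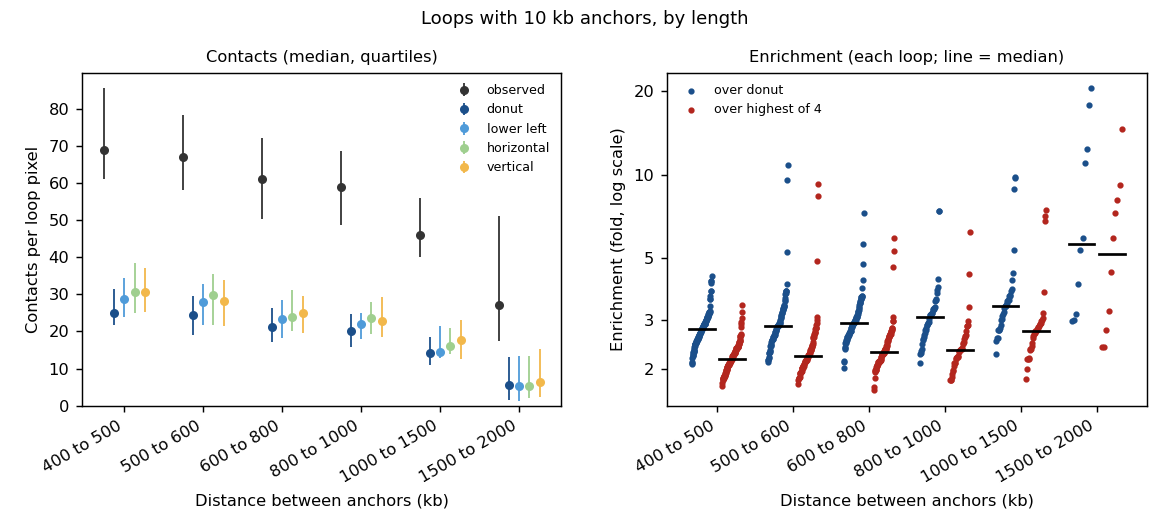
Long loops with 10 kb anchors by class of anchor distance (kb). On the left, points are medians and bars the quartiles of observed contacts and of the 4 expected values. On the right, each point is a loop's enrichment on a log scale, over the donut and over the highest of the 4 expectations, with the median as a line. Median contacts are 69 in the shortest class and 27 in the longest, while the median donut enrichment is 2.78 and 5.63.

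Anchor width has to be kept apart from length. The 50 loops with 5 kb anchors had a median of 36 contacts and a donut enrichment of 4.31, against 65 contacts and 2.90 for those with 10 kb anchors. In loops up to 400 kb the medians were 46 contacts and 3.43 on 5 kb anchors, and 88 contacts and 2.49 on 10 kb anchors. Long loops thus had fewer contacts and a higher ratio than shorter loops at either width.

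The most contacts were found at the short end of the range. A 410 kb loop on chromosome 10 from 16880001 to 17300000 had 136, a 440 kb loop on chromosome 6 from 143890001 to 144340000 had 130, and a 420 kb loop on chromosome 5 from 34480001 to 34910000 had 119. A 600 kb loop on chromosome 8 from 124830001 to 125440000 also had 119, and a 550 kb loop on chromosome 13 from 71890001 to 72450000 had 115. Their donut expectations were 41.0 to 53.5, and their enrichments over the donut were 2.15 to 3.0. Of these 5, 4 were at a domain corner, and the chromosome 6 loop had 1 anchor at a boundary.

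High ratios came from places with few expected contacts. Among loops with at least 20 contacts, the highest over all 4 neighbourhoods was 9.23-fold, for a 580 kb loop on chromosome 5 from 98830001 to 99420000 with 26 contacts. The 1950 kb loop on chromosome 9 followed at 8.09-fold. A 1360 kb loop on chromosome 5 from 230001 to 1600000 had 21 contacts and 7.09-fold. A 900 kb loop from 98760001 to 99670000, around the first of these, had 23 contacts and 6.22-fold. A 1245 kb loop on chromosome 16 from 29810001 to 31060000 had 49 contacts against 2.80 from the donut, a ratio of 17.5 (13 to 23.2), but 8.23 from the lower left, a ratio of 5.95. In this last loop the choice of neighbourhood moved the value by more than in the others.

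These loops belong to a group set off by low expectations. Fewer than 5 contacts were expected from the donut in 25 long loops (6.35%), against 8 of the shorter ones, a limit chosen after the values were seen. They had a median length of 900 kb, 21 contacts (range 14 to 49), and enrichments of 8.85 over the donut and 5.95 over the highest expectation. Of them, 14 had no anchor at a boundary, 9 had 1, and 2 were at a corner, on chromosome 3 from 167925001 to 168570000 (640 kb, 24 contacts) and on chromosome 17 from 5490001 to 6335000 (840 kb, 24 contacts). None shared an anchor with another loop. They made up 14 of the 29 long loops with neither anchor at a boundary, which had a median of 31 contacts and a donut expectation of 5.19.

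The highest ratio over the donut, 20.5 (11.7 to 33.3), was that of a 1720 kb loop on chromosome 13 from 20120001 to 21850000, with 16 contacts against 0.780. In a 1570 kb loop on chromosome 5 from 177370001 to 178950000, 14 contacts stood against 0.789. The width of the first interval shows how loosely such ratios are fixed. Over the whole set, 31 long loops (7.87%), 5 of them at a corner, were at least 4 times above all 4 expectations, against 8 shorter loops (0.771%).

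**Figure D4:**
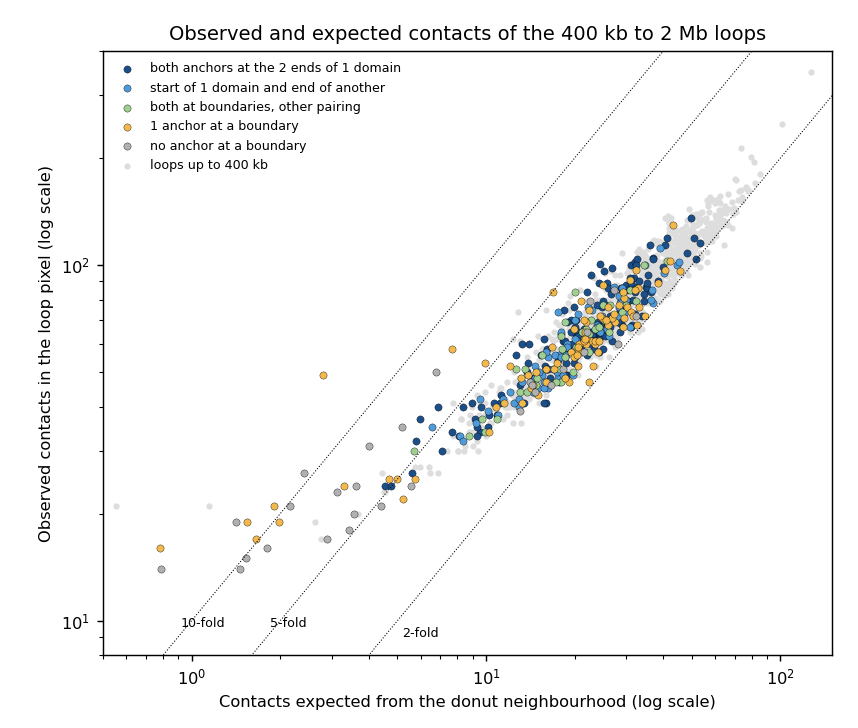
Observed contacts of each long loop against the contacts expected from its donut neighbourhood, both on log scales, coloured by how the anchors lay to domain ends. Loops up to 400 kb are in pale grey, and dotted lines mark 2, 5 and 10 times the expectation. The 25 long loops with fewer than 5 expected contacts lie at the lower left, and 14 of them had no anchor at a boundary.

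The radius is the spread of the pixels that the caller merged into 1 loop, taken here to be in base pairs. It was 0 in 183 long loops (46.4%) and in 434 shorter ones (41.8%). In the long loops it was 0 exactly where a single pixel made up the loop, so a radius of 0 means 1 pixel, not a sharper contact. Otherwise 126 loops had 2 pixels, 49 had 3, and 36 had more, up to 7. The median was 5000 bp over all long loops and 6009 bp over those above 0. It was 0 over loops of 500 kb to 2 Mb, and also over loops with q-values of at most 0.01. Among loops with 10 kb anchors, the 192 with a radius above 0 had a median of 68 contacts and 47.4% were at a corner, and the 152 with a radius of 0 had 58.5 contacts and 27.6% at a corner. Spearman's rho between contacts and radius was 0.375 over these 344 loops.

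The largest radius was 20156 bp, for a 430 kb loop on chromosome 11 from 130300001 to 130740000 with 101 contacts in 4 pixels. It was followed by 16667 bp for a 680 kb loop on chromosome 4 from 81280001 to 81970000 and 15000 bp for a 420 kb loop on chromosome 12 from 93380001 to 93810000, with 89 and 90 contacts. These 3 were at a domain corner. The next, on chromosome 1 from 225660001 to 226170000 with 14142 bp and on chromosome 3 from 114930001 to 115420000 with 13744 bp, were not.

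Compartment scores were deposited for 1 Mb bins, positive or negative, and which sign marks active chromatin was not given in the sources used here. Both anchors of 393 long loops fell in bins with a score, and 342 of these pairs had the same sign (87.0%, 83.3 to 90.0), with 194 positive and 148 negative. In 130 loops both anchors fell in 1 bin and shared its sign by construction. Of the 263 loops between different bins, 212 had the same sign (80.6%, 75.4 to 84.9) and 51 had opposite signs, with the negative bin on the left in 26 and on the right in 25.

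This share lay close to that of neighbouring bins in general. Of the 249 long loops whose anchors lay in adjacent bins, 203 had the same sign (81.5%, 76.2 to 85.9), against 82.2% of all 2838 pairs of adjacent bins in the genome and 164 of 214 shorter loops (76.6%, 70.5 to 81.8). At 2 bins apart it was 9 of 14 long loops (64.3%, 38.8 to 83.7), against 74.1% of all such pairs. On chromosomes 5, 11, 13, 14 and 22 a few bins hold most of the score, and on chromosome 4 the sign follows the chromosome arms. Without these 6 chromosomes, 149 of 184 long loops between adjacent bins had the same sign (81.0%), against 82.4% of adjacent bins. Some loops named above for their ratios had an anchor in a bin of extreme score. The left bin of the 1720 kb loop on chromosome 13 scored -0.989, at percentile 1.03 of its chromosome. The right bin of the 1360 kb loop on chromosome 5 scored -0.763, at percentile 0.559. What this means for their contacts was not tested.

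The anchors themselves were less often in positive bins than those of shorter loops. The share was 55.9% of 786 anchors of long loops and 67.1% of 2076 anchors of loops up to 400 kb, where 48.9% of all signed bins were positive. Both anchors shared 1 bin, and so its sign, in 130 of 393 long loops and 824 of 1038 shorter ones, so anchors are not independent and no interval is given. Without the 6 chromosomes named above, it was 54.2% and 67.5%, and 44.3% of bins. Within the long loops it was 61.9%, 59.9%, 49.4%, 52.2%, 48.7% and 45.5% over the 6 length classes. Loops with both anchors positive had a median length of 560 kb and 45.9% were at a corner. Those with both negative had medians of 625 kb and 37.2%, and those with opposite signs 630 kb and 35.3%. Median contacts were close, at 64, 60.5 and 59. Without the 6 chromosomes, the corner shares in the same order were 42.3% (34.4 to 50.7), 35.4% (27.2 to 44.6) and 35.9% (22.7 to 51.6). These intervals overlap. All these signs were pooled over chromosomes, and whether a sign means the same on each chromosome was not given. The share of loops that were long also differed between chromosomes. Whether the difference in sign between long and shorter loops goes with length, chromosome or corner status was not tested. In bins of 1 Mb the score cannot place a single anchor.

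Among loops of opposite sign outside these 6 chromosomes, the widest gap in score rank was in an 800 kb loop on chromosome 2 from 84720001 to 85530000 with 36 contacts. Its left bin stood at percentile 13.2 of its chromosome and its right bin at 72.7. A 1430 kb loop on chromosome 10 from 7910001 to 9345000 joined percentiles 59.0 and 11.2. A 530 kb loop on chromosome 3 from 148670001 to 149210000 joined 33.7 and 73.5. The 1250 kb corner loop on chromosome 12 from 32910001 to 34170000, over a domain of 1270 kb, joined 60.6 and 22. A 480 kb corner loop on chromosome 7 from 54840001 to 55330000 joined 24.1 and 62.7. These last 2 were single listed domains whose ends lay in bins of opposite sign.

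**Figure D5:**
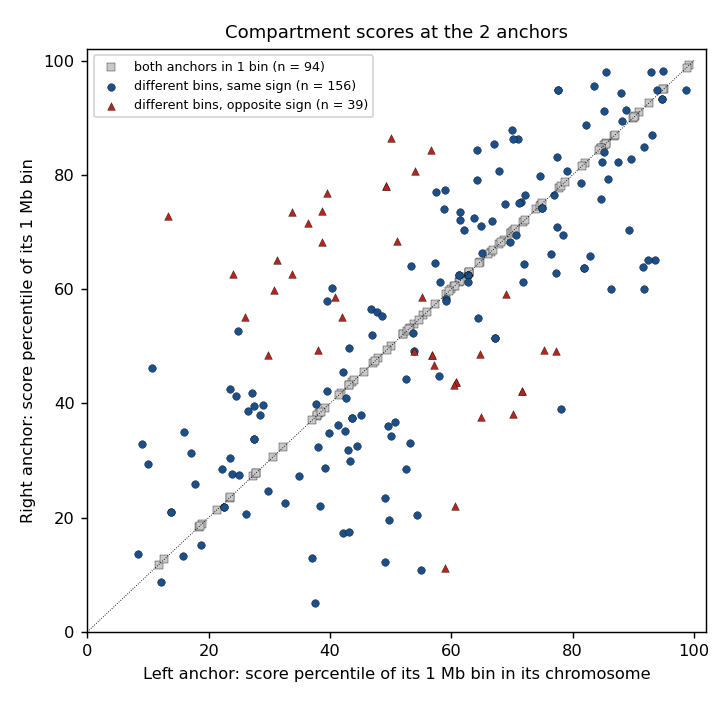
Percentile of the compartment score, within its chromosome, of the 1 Mb bin of the left anchor and of the right anchor of each long loop, outside chromosomes 4, 5, 11, 13, 14 and 22. Grey squares are loops within 1 bin, blue circles join bins of the same sign and red triangles bins of opposite sign. Most pairs lie near the diagonal, and 39 of the 289 join opposite signs.

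Chromosomes differed in how much of their loop list was long. Of all loops up to 2 Mb, 27.5% (25.3 to 29.9) were above 400 kb. The share was highest on chromosome 13, with 18 of 34 (52.9%, 36.7 to 68.5), and was 40.9% on chromosome 9 (27 of 66). Chromosome 1 had 26 of 163 (16%, 11.1 to 22.3) and chromosome 19 had 1 of 23 (4.35%, 0.772 to 21). Chromosomes 2 and 6 held the most long loops, 37 and 36. Their density, per Mb with a compartment score, was 0.137 overall. It was highest on chromosome 10, at 0.231, and lowest of the chromosomes that held any on chromosome 19, at 0.0172, with 0.0530 on the X. The corner share was 66.7% on chromosome 13 (12 of 18) and 16.1% on chromosome 10 (5 of 31). Chromosomes were set side by side after their values were seen, and no interval here allows for that choice.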

How the data were processed

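In situ Hi-C was done on 2 libraries of HEK293T cells, replicates 1 and 2 of 1 group. The submitters' processing notes list hg19 as the build and BWA 0.7.8, FastQC 0.11.7 and Picard as tools, without roles. How the authors combined the libraries, and how they called domains and compartments, was not given in the sources used here. A deposited loop table, made with HiCCUPS per its name, holds per the file headers an observed count of contacts per loop pixel, the authors' 4 expected contacts, 4 FDR columns (q-values, at most 0.0868 in any of the long loops), the merged pixels and a radius. The authors' domain table gives a caller score per domain on 5 kb bins, and their compartment table a score per 1 Mb bin. Depth per library is unknown. Contacts per pixel are the only measure of it, and intervals cover counting error only.

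Computed here, with Python 3.11.15, pandas 2.3.3 and scipy 1.17.1, were the distance of each anchor centre to domain ends (within 50 kb), domains and loops inside each loop, enrichment as observed over expected contacts, and the sign and rank of the bin of each anchor. Corner status, boundaries between the anchors, and domains and loops inside a loop were tested on simulated data. The other steps, such as enrichment and the sign and rank of bins, were not. The loops and lists were chosen with earlier results of these data known. The rule for named loops takes the extremes of length, contacts, enrichment (20 contacts or more), nesting, domains inside, radius, corner length, shared anchors and score gap. Loops with low expectations, in chains, crossing, inside a domain or over a pair of domains were added after their values were seen. Genes, motifs and sequences at the anchors were not analysed here, since no annotation of hg19 was at hand. With 1 pooled map there was no test, and other tolerances, bounds and filters were tried instead.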

Additional observations from a re-analysis of the deposited data

How the results depend on the processing

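Of 59 alternative values, 42 stayed within the counting interval of the value reported and 17 moved. The corner share of 41.1% was 17.8% with a tolerance of 10 kb, 34.8% with 25 kb, 47.2% with the larger of 50 kb or 0.2 of the loop length, 34.0% for loops of 500 kb to 2 Mb, and 30.2% over domains scoring above the median. For loops of 500 kb to 2 Mb, a boundary lay between the anchors in 51.5%, the median number of domains inside was 1 (0 over all long loops), and the donut enrichment was 3.05. On 10 kb anchors only, the donut enrichment was 2.90 and that over the highest expectation 2.28. With q-values of at most 0.01 they were 3.06 and 2.40. The nested share was 19.5% for inner loops at most 0.5 of the outer length and 6.09% where both inner anchors lay at least 20 kb inside. The median radius was 6009 bp over loops above 0, and 0 both over loops of 500 kb to 2 Mb and with q-values of at most 0.01, which its wide interval (0 to 5000 bp) includes. The same-sign share was 80.6% over loops between different bins, and the shared-anchor share was 49.0% for bins within 20 kb. The cause of these shifts was not tested beyond what each setting changes. Leaving out loops with fewer than 5 expected contacts, added after the data were seen, left all 9 results within their intervals.

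No paired analysis was possible because the tables have no column per library and there is 1 group, so neither replicate could be left out or paired. The planned count of genes at anchors was not run for want of an hg19 annotation. Low contact counts limit what single loops can show: 14 to 49 contacts stood behind the 25 loops of low expectation. The tables list only what passed a caller, so a loop, domain or nested loop below its threshold is not seen.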
